A study of Mus musculus with 8 samples.

Results

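Dexamethasone-treated and chronically insulin-treated 3T3-L1 adipocytes were compared over the whole transcriptome. 3T3-L1 is a mouse fibroblast line that can be differentiated into fat cells, and the study used either treatment as a model of insulin resistance. The comparison took 5 of the 8 arrays of the series by sample title, 3 of the dexamethasone model (Dex) and 2 of the chronic insulin model (CI), and covered all 18193 genes that had a probe set with a single gene symbol. Where a gene had several such probe sets, the one with the highest mean over the 8 arrays stood for it. In both models the last 6 h of treatment were in the presence of MnTBAP (MnTBP in the titles), a manganese porphyrin that acts as an antioxidant and enters cells. The same held for the 3 arrays of the tumour necrosis factor (TNF) model, whose values are given beside the others. All 8 arrays were fitted together, so the spread of the TNF arrays entered the SE and p-values of the comparison. Doses and durations of dexamethasone and insulin were not given in the sources used here. No untreated cells and no cells without MnTBAP were analysed here, so a gene lower in Dex can equally be a gene higher under CI.

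Dexamethasone is a synthetic glucocorticoid. It binds the glucocorticoid receptor, a transcription factor that moves to the nucleus, raises transcription of genes such as Fkbp5 and Tsc22d3 from glucocorticoid response elements, and represses many inflammatory genes. Insulin drives glucose uptake, lipid synthesis and growth signalling in adipocytes through its receptor, the Irs proteins and Akt, and restrains lipolysis and the FOXO transcription factors.

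Nothing in the labels ties the arrays of a model to independent cultures. The p-values below therefore reflect the variation among these samples alone, and that variation may be technical. The median intensity of the 5 arrays lay between 124.7 and 129.1. Arrays of the same model correlated at 0.996 to 0.997 over the probe sets, and a CI and a Dex array at 0.986 to 0.987. The labels describe the samples both as adipose cells and as preadipocytes. The 6 of the adipocyte markers with a named probe set (Adipoq, Fabp4, Lpl, Cd36, Cidec and Retn) lay between 13.39 and 14.45 on the log2 scale in all 5 arrays, near the top of the scale, where differences can be compressed, and none was called between the models. The intensities of these 6 genes summed to between 101896 and 102558 in CI and between 101337 and 104575 in Dex. The longer adipocyte identity list of 23 measured genes held 10 genes lower and 2 higher in Dex, against 5.67% and 3.33% of all genes. Of 22 preadipocyte and fibroblast markers, 2 were higher and 5 lower in Dex, and the summed intensity was 47271 to 47770 in CI and 47474 to 49676 in Dex. Of 19 macrophage and leukocyte markers, 13 lay below the median gene in both models, Cd14 was higher in Dex and Lyz1 lower, and the summed intensity was 5226 to 5374 in CI and 4719 to 4907 in Dex. The part of other cell types in the differences below was not tested, and fewer cells of a type cannot be told apart from less RNA per cell in such samples. The beta-actin 3′ minus 5′ difference, a sign of RNA quality, was 0.66 and 0.54 in CI and 0.49, 0.49 and 0.75 in Dex. Used as a covariate it gave 1637 genes called (611 higher and 1026 lower), and 1608 of the 1637 calls made without it held.

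In all, 1637 of 18193 genes (9.00%) differed between Dex and CI at a limma adjusted p under 0.05 and a log2 difference over 0.5. These genes are said to be called, higher or lower below. The gene lists were chosen with earlier results of these data known, so their shares beside those of all genes are descriptions and were not tested. Higher in Dex were 605 genes (3.33%) and lower were 1032 (5.67%). The median difference over all genes was 0.02. Beyond a log2 difference of 1 (2-fold) there were 135 higher and 288 lower genes, and beyond 3 (8-fold) 10 higher and 17 lower. The arrays of the models did not overlap for any of the 1637 genes, as they did not for 47.96% of all genes. Where each CI array was left out in turn, 1421 and 1425 of the 1637 calls held and the number of higher genes went from 523 without CI replicate 1 to 670 without CI replicate 2.

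**Figure D1:**
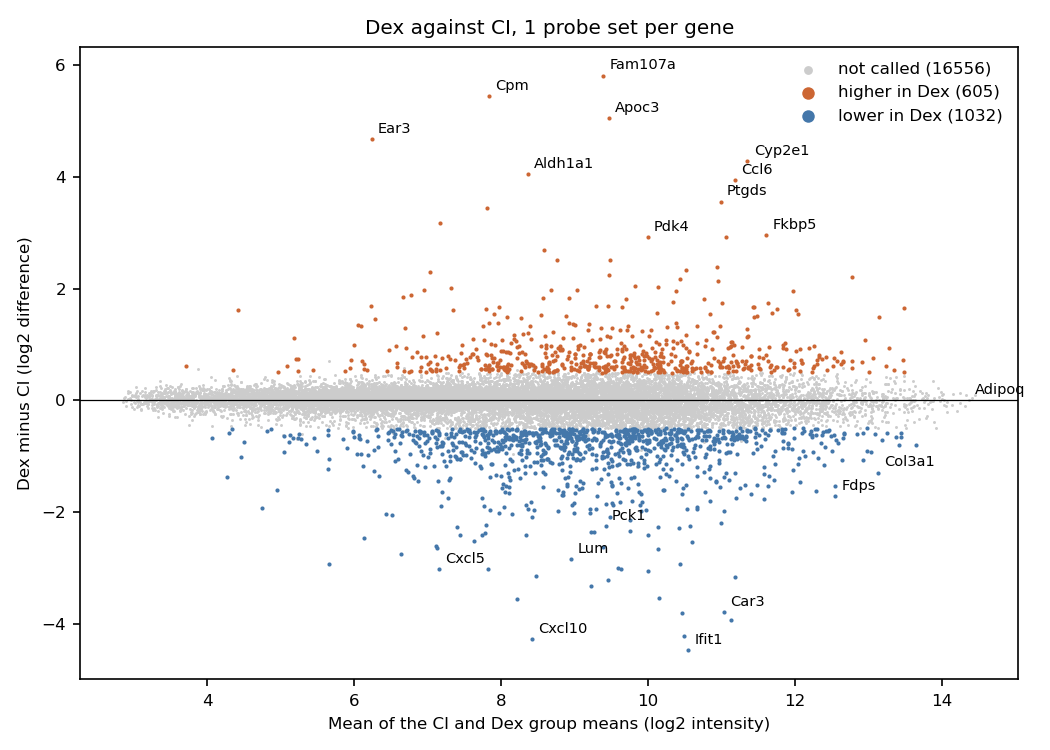
Difference between the Dex and CI group means (vertical axis, log2) against their average level (horizontal axis, log2 intensity) for 18193 genes, with called genes coloured and some named. The 605 higher genes reach 5.81 (Fam107a) and the 1032 lower genes reach -4.47 (Ifit1), while most genes lie close to 0.

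Short stretches of promoter sequence are shown first for some of the called genes, because the recognition sequences of the relevant transcription factors are known. They are credited to RefSeq (mouse assembly GRCm38.p6) and were searched from 250 bases before to 50 after each start site, in 14368 of the tested genes. The core of the glucocorticoid response element was searched on both strands as a G, any base, ACA, any 3 bases, TGT, any base and a C, a pattern that is its own reverse complement. It lay in the promoters of 0.425% of the 14368 genes, of 11 of 482 genes higher in Dex (2.28%), of 4 of 796 genes lower in Dex (0.503%) and of 3 of 29 genes in the list of glucocorticoid responses. The 3 were Fam107a, Mt1 and Sgk1. Map3k6 and Folh1, picked after the values were seen because their promoters hold the core, were among the other higher genes. Folh1 lay below the median gene in both models, with means of 3.60 in CI and 5.22 in Dex. The core stands in capitals in the windows below, which are written 5′ to 3′ on the strand of the gene. The window of Fam107a (chr14:8309869-8309913, minus strand) begins its core 120 or 118 bases before the annotated start sites, that of Mt1 (chr8:94178979-94179023, plus strand) 94 bases before, and that of Sgk1 (chr10:21993686-21993730, plus strand) 188 bases before 1 of 6 annotated promoters. Those of Map3k6 (chr4:133240621-133240665, plus strand) and Folh1 (chr7:86776034-86776078, minus strand) begin it 181 and 198 bases before the start.
Fam107a: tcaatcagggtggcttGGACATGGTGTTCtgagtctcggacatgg
Mt1: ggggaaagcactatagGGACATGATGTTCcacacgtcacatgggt
Sgk1: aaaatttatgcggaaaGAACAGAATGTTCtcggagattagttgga
Map3k6: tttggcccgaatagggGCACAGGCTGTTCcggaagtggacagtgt
Folh1: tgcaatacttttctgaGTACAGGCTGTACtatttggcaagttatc

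The core of the interferon-stimulated response element was searched on both strands as GAAA, any 2 bases and GAAA. It lay in 3.64% of all 14368 genes, in 15 of 482 higher in Dex (3.11%), in 63 of 796 lower in Dex (7.92%) and in 12 of 24 genes of the interferon response list. Windows are given for 4 of the genes that were lower in Dex, in which the core lies on the opposite strand and so reads as its reverse complement. They are Ifit1 (chr19:34640769-34640810, plus strand, core 104 bases before the start), Ifit3 (chr19:34583391-34583432, plus strand, 122 bases), Gbp2 (chr3:142620588-142620629, plus strand, 59 bases) and Rsad2 (chr12:26456547-26456588, minus strand, 120 bases). Gbp2 was picked after the values were seen.
Ifit1: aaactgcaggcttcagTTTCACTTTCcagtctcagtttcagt
Ifit3: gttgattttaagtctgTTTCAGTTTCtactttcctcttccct
Gbp2: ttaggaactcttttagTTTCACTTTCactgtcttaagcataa
Rsad2: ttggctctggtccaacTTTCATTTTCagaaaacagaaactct

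The last motif was the core of the sterol regulatory element, TCACNCCAC, searched on both strands. It lay in 1.45% of the 14368 genes, in 3 of 482 higher in Dex (0.622%) and in 13 of 796 lower in Dex (1.63%). In the cholesterol list it lay in 1 of 16, Hmgcs1 (chr13:119690198-119690238, plus strand, core 137 bases before the start). The product of Hmgcs1 makes the precursor of mevalonate. A gene with several annotated promoters counted when any of them held the motif. None of the promoters shown held more than 1 kind of these motifs. A match is a description of these letters and was not tested as a binding site.
Hmgcs1: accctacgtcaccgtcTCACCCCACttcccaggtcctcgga

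Genes induced by glucocorticoids were higher in Dex. Of 35 measured members of the glucocorticoid response list, 21 were higher, 4 lower and 10 did not pass, against 3.33% of all genes higher, and the median difference was 0.73 against 0.02 over all genes. In the contrast of Dex with TNF, 19 of the 35 were higher in Dex, against 3.16% of all genes. Fkbp5, which encodes a co-chaperone that dampens the glucocorticoid receptor, had log2 intensities of 10.10 and 10.15 in CI and of 13.13, 13.14 and 12.99 in Dex. All 3 Dex arrays lay above both CI arrays, a 7.79-fold difference (2.96 ± 0.08, difference ± SE, limma adjusted p = 1.33e-09). Tsc22d3, which encodes the anti-inflammatory mediator GILZ, lay at 9.71 and 10.05 in CI and at 11.93, 12.23 and 11.88 in Dex. It differed by 2.13 ± 0.15 (adjusted p = 1.84e-06), and for both genes the TNF arrays lay close to CI (10.38 to 10.49 for Fkbp5 and 9.49 to 9.93 for Tsc22d3). Sgk1, which encodes a kinase of salt and glucose transport, lay at 8.97 and 9.19 in CI and at 10.54, 10.26 and 10.23 in Dex (1.26 ± 0.16). The metallothionein gene Mt1, which encodes a metal-binding protein, lay at 12.30 and 12.49 in CI and at 13.85, 14.03 and 13.78 in Dex (1.49 ± 0.09), and its neighbour Mt2 differed by 1.75 ± 0.12. Zbtb16, which encodes the transcription factor PLZF, lay at 8.94 and 9.20 in CI and at 10.51, 10.39 and 10.29 in Dex (1.33 ± 0.13). The receptor tyrosine kinase gene Mertk (2.51 ± 0.14), the transcription factor gene Cebpd (2.40 ± 0.17) and Agt, the precursor of angiotensin (2.21 ± 0.09), were also among the higher members.

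Not every known target was higher. Klf15, a glucocorticoid-induced factor in many tissues, lay at 11.40 and 11.46 in CI and at 10.24, 10.14 and 10.27 in Dex, lower in each Dex array (-1.22 ± 0.09, limma adjusted p = 2.32e-06), and TNF lay at 9.88 to 10.14. The other members called lower were Rasd1, a Ras-related gene named for its induction by dexamethasone (-1.83 ± 0.07), the transglutaminase gene Tgm2 (-1.53 ± 0.09) and the caveolar protein gene Cavin2 (-0.76 ± 0.08), all 3 picked after the values were seen. Of the marginal members, the clock gene Per1 (0.81 ± 0.18), Nfkbia (0.58 ± 0.15) and Cebpb (0.66 ± 0.14) were not called without CI replicate 1 (0.67, 0.47 and 0.52). The MAP kinase phosphatase gene Dusp1, likewise picked (0.73 ± 0.21), was not called without CI replicate 1, Dex replicate 1 or Dex replicate 2, and Klf9 (0.54 ± 0.16) was not called without CI replicate 1 or 2 or Dex replicate 1 or 2. The number of members higher was 16 to 21 over the arrays left out. Nr3c1, the glucocorticoid receptor gene itself, lay at 11.34 and 11.26 in CI and at 10.73, 10.61 and 10.49 in Dex (-0.69 ± 0.10, adjusted p = 0.000409). Hsd11b1, whose enzyme regenerates active glucocorticoid inside the cell, lay at 13.52 and 13.40 in CI and at 12.45, 12.23 and 12.51 in Dex (-1.07 ± 0.10). Both were lower in Dex in every array, and Hsd11b1 was as low in TNF (12.12 to 12.35).

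The largest differences were those of Fam107a, Cpm and Apoc3, which had a low level in CI. Fam107a, an actin-associated gene known for its induction by stress and glucocorticoids, lay at 6.29 and 6.66 in CI and at 12.45, 12.27 and 12.16 in Dex, 56.2-fold apart (5.81 ± 0.17, limma adjusted p = 3.24e-09). Its 3 probe sets differed by 4.51 to 5.81. Cpm, which encodes the membrane peptidase carboxypeptidase M, lay at 5.15 and 5.06 in CI and at 10.59, 10.51 and 10.56 in Dex, 43.7-fold apart (5.45 ± 0.09, adjusted p = 4.55e-11). Apoc3, an apolipoprotein that inhibits lipoprotein lipase and is chiefly known from liver, lay at 6.95 and 6.93 in CI and at 11.76, 12.12 and 12.09 in Dex (5.05 ± 0.22). TNF lay at 6.57 to 7.22 for Fam107a, 5.19 to 5.46 for Cpm and 6.02 to 7.01 for Apoc3. Dex was higher than TNF by 5.43, 5.27 and 5.55 (adjusted p at most 9.2e-09). The CI levels of these genes were below the median gene (7.91), and without a measure of background the sizes of such differences are uncertain. Of the 605 higher genes, 160 lay below the median gene in CI, and 93 of these lay above it in Dex. Among the 26 genes higher by a log2 difference over 2, 11 lay below the median gene in CI.

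Several of the other large differences were in enzymes of small-molecule metabolism. Cyp2e1, a cytochrome P450 that oxidises ethanol and other small molecules, lay at 9.04 and 9.37 in CI and at 13.55, 13.43 and 13.51 in Dex (4.29 ± 0.14, limma adjusted p = 8.81e-09). Aldh1a1, which makes retinoic acid from retinaldehyde, lay at 6.42 and 6.25 in CI and at 10.41, 10.28 and 10.47 in Dex (4.05 ± 0.11), with TNF between them at 7.37 to 7.70. The alcohol dehydrogenase gene Adh1, an enzyme of the preceding step, was higher by 2.04 ± 0.10, and Cyp26b1, which breaks retinoic acid down, by 1.38 ± 0.23. Of 25 measured retinoid genes, 4 were higher and 3 lower, against 3.33% and 5.67% of all genes. The lower ones included the receptor gene Rxrg (-1.11 ± 0.09) and the reductase gene Rdh11 (-1.46 ± 0.15). Ptgds, which makes prostaglandin D2, lay at 9.24 and 9.17 in CI and at 12.87, 12.70 and 12.74 in Dex (3.56 ± 0.09). Ptgis, the prostacyclin synthase gene, was higher by 1.54 ± 0.09, whereas the phospholipase gene Pla2g2e (-2.37 ± 0.08) and the prostaglandin F receptor gene Ptgfr (-1.44 ± 0.11) were lower. Gsta3, a glutathione transferase gene, lay at 5.93 and 6.23 in CI and at 9.41, 9.38 and 9.79 in Dex (3.44 ± 0.17). Ear3 (4.68 ± 0.21), Cabp4 (3.18 ± 0.16), Clca3a1 (2.93 ± 0.09), Map7d2 (2.70 ± 0.17) and Ctla2a (2.52 ± 0.18) were the remaining large differences. Ear3, Gsta3 and Ctla2a have close paralogs, and whether their probe sets also read those was not tested.

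**Figure D2:**
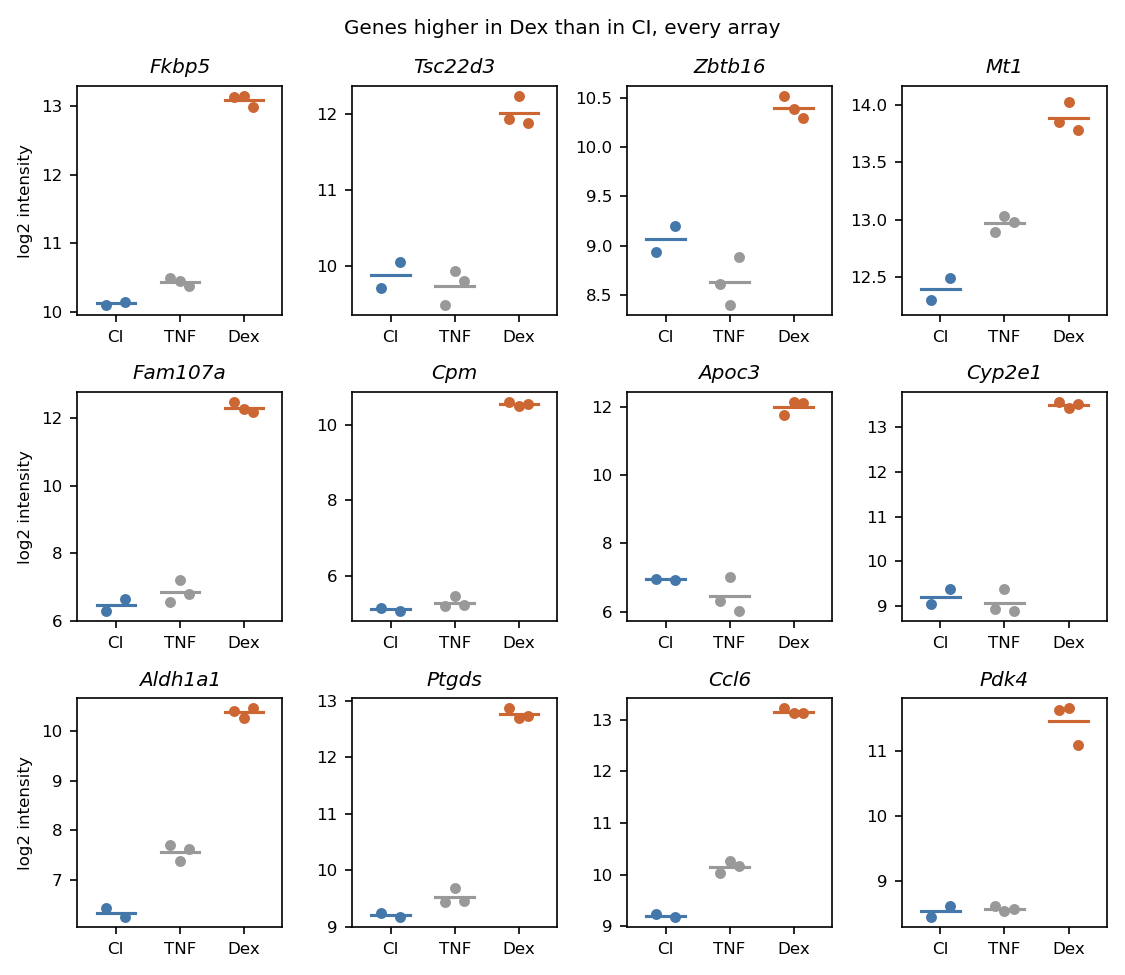
Log2 intensity (vertical axes) of 12 genes in each of the 8 arrays, by model, with a bar at each group mean. The Dex arrays lie above all CI and TNF arrays for each gene, from Zbtb16 (1.33 above CI) to Fam107a (5.81 above CI).

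Interferon-stimulated genes showed the largest differences in the other direction. Of 33 measured members of the interferon response list, 30 were lower in Dex, 0 higher and 3 did not pass (Irf1, Oasl1 and Ifi27), against 5.67% of all genes lower. Their median difference was -1.98. The 30 calls held in each fit with 1 array left out. Ifit1, an antiviral protein that binds foreign RNA, lay at 12.75 and 12.82 in CI and at 8.69, 8.47 and 7.78 in Dex, 22.2-fold lower (-4.47 ± 0.44, limma adjusted p = 2.54e-05). Ifit3, of the same family, lay at 13.06 and 13.13 in CI and at 9.39, 9.44 and 8.69 in Dex (-3.92 ± 0.32). Every Dex array was below every CI array, and Dex replicate 3 had the lowest value of both genes. Usp18, a protease that shuts off interferon signalling, lay at 12.37 and 12.35 in CI and at 8.81, 8.54 and 8.34 in Dex (-3.80 ± 0.30). Rsad2, the antiviral enzyme viperin, lay at 11.50 and 11.54 in CI and at 8.48, 8.49 and 8.43 in Dex (-3.05 ± 0.21). Gbp2, an interferon-inducible GTPase, lay at 11.51 and 11.63 in CI and at 9.28, 9.23 and 9.33 in Dex (-2.29 ± 0.10).

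Genes of interferon signalling were lower as well. Irf7, a factor that amplifies interferon production, lay at 10.73 and 10.92 in CI and at 9.11, 9.14 and 8.63 in Dex (-1.86 ± 0.15). Irf9 (-1.93 ± 0.19) and Stat2 (-1.55 ± 0.26), both subunits of the interferon-activated factor ISGF3 and picked after the values were seen, were lower too. Irf1, which responds to interferon gamma and to NF-kB, differed by -0.25 and did not pass. Cxcl10, an interferon-induced chemokine that attracts T cells and was listed with the chemokines, lay at 10.53 and 10.59 in CI and at 6.63, 6.07 and 6.17 in Dex (-4.27 ± 0.35). The remaining large differences in this direction included Iigp1 (-4.22 ± 0.43), Oasl2 (-3.54 ± 0.27), Zbp1 (-3.32 ± 0.11), Trim30a (-3.21 ± 0.40), Rtp4 (-3.16 ± 0.26) and Irgm2 (-3.02 ± 0.33), all of which interferons are known to induce, and Gm4951 (-3.56 ± 0.29) and Gm9706 (-3.15 ± 0.12). Of 16 measured antigen presentation genes, 5 were lower and 0 higher, against 5.67% and 3.33% of all genes. These were the immunoproteasome subunits Psmb9 (-1.71 ± 0.09) and Psmb8 (-1.32 ± 0.09), the peptide transporters Tap1 (-1.38 ± 0.15) and Tap2 (-0.62 ± 0.08), and their regulator Nlrc5 (-1.04 ± 0.11). Tap1 was not called when the median of its 4 probe sets was used (-0.09). Psmb8, Psmb9 and Tap1 stood in both lists.

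In the TNF model these genes had intermediate levels, with a mean between those of Dex and CI for 25 of the 33. Averaged over the 33 members, the log2 intensity was 11.02 and 11.09 in the CI arrays and 9.05, 8.90 and 8.73 in the Dex arrays, and the TNF arrays lay between, the highest at 10.72. In the contrast of Dex with TNF, in which 4.14% of all genes were lower in Dex, 27 of the 33 were lower. The contrasts share the Dex arrays. The TNF arrays were spread more widely than the others, with Ifit1 at 11.87, 9.94 and 10.43, and this spread entered the SE given for Dex and CI.

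Genes of cholesterol synthesis and uptake were lower in Dex without exception among those measured, at the probe set that stood for each gene. All 20 measured members were called lower, against 5.67% of all genes, with differences from -1.99 to -0.55 and a median of -1.47. The members' average level was 11.45 and 11.49 in CI and 10.05, 10.06 and 10.32 in Dex, so that Dex replicate 3 lay nearest to CI. Stard4, a sterol transport protein, lay at 10.87 and 10.92 in CI and at 8.85, 8.77 and 9.10 in Dex (-1.99 ± 0.11, limma adjusted p = 4.82e-07). Sqle, the squalene epoxidase gene, picked after the values were seen, lay at 12.44 and 12.37 in CI and at 10.69, 10.80 and 11.10 in Dex (-1.54 ± 0.14). Fdps, which makes farnesyl diphosphate, the branch point towards sterols, lay at 13.39 and 13.41 in CI and at 11.55, 11.63 and 11.89 in Dex (-1.71 ± 0.12). Hmgcs1 lay at 12.47 and 12.68 in CI and at 11.32, 11.35 and 11.94 in Dex (-1.04 ± 0.18, adjusted p = 0.00151). The groups did not overlap for any of these. The smallest differences were those of the master regulator Srebf2 (-0.57 ± 0.12), the isomerase Ebp (-0.56 ± 0.09) and the sterol sensor Insig1 (-0.55 ± 0.10), picked for their small size after the values were seen. Without CI replicate 2, Srebf2 and Insig1 were not called (-0.43 and -0.41), nor was Srebf2 without Dex replicate 3 (-0.47). Srebf2 was also not called with the median of its probe sets (-0.33), nor Insig1 after quantile normalization (-0.4999). Other probe sets differed less for some members, reaching 0.13 for Fdps and -0.11 for Fdft1. In the contrast of Dex with TNF, 16 of the 20 were lower in Dex, against 4.14% of all genes. The members' average in TNF was 10.83, 11.14 and 11.09.

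**Figure D3:**
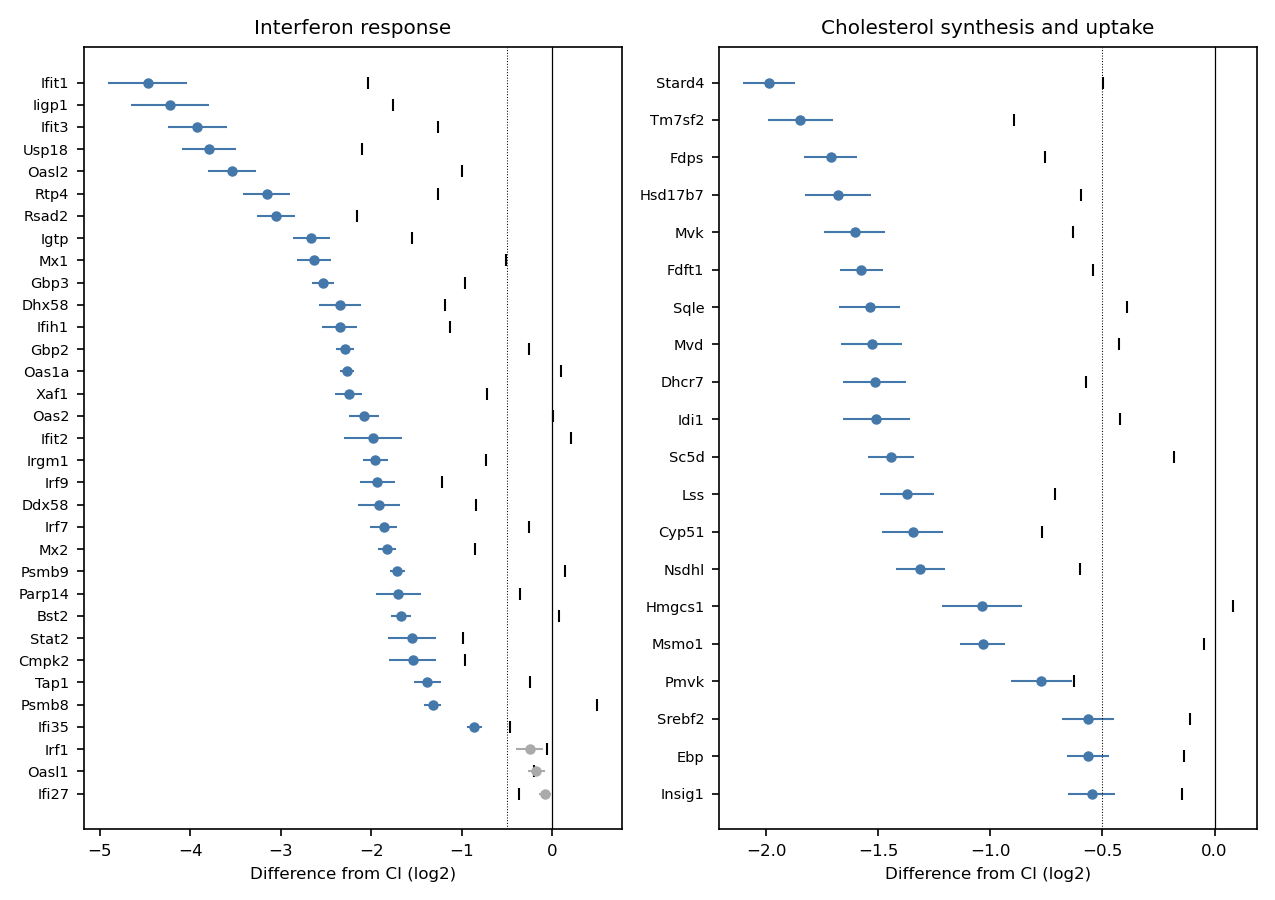
Difference of Dex from CI for each member of the interferon response list (left) and of the cholesterol list (right), as points with the SE of the fit, coloured when called lower and grey when not, on a log2 axis with a dotted line at -0.5. Black ticks show TNF minus CI, and the TNF mean lies between the CI and Dex means for 25 of the 33 and 19 of the 20 members.

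Enzymes that make fatty acids followed in part. Of 22 measured genes of fatty acid synthesis and its regulators, 11 were lower, 1 higher and 10 did not pass, with a median of -0.55. Over all genes, 5.67% were lower and 3.33% higher. Acss2, which activates acetate, lay at 11.62 and 11.67 in CI and at 10.20, 10.23 and 10.19 in Dex (-1.44 ± 0.07, limma adjusted p = 1.61e-07). Acly, which makes cytosolic acetyl-CoA from citrate, lay at 12.98 and 12.97 in CI and at 11.63, 11.74 and 12.08 in Dex (-1.15 ± 0.14). Fasn, the fatty acid synthase gene, lay at 13.20 and 13.09 in CI and at 12.53, 12.57 and 12.52 in Dex (-0.61 ± 0.10). The acyl-CoA ligase gene Acsl3 (-1.65 ± 0.09) and malic enzyme Me1 (-0.99 ± 0.10) were also lower. Thrsp, a lipogenic regulator and the single member called higher, differed by 0.76 ± 0.11. The regulators Srebf1 and Mlxipl differed by 0.39 and 0.24 and did not pass. Of 17 triglyceride assembly genes, 4 were lower, among them Gpat3 (-1.24 ± 0.10) and Dgat2 (-0.58 ± 0.11), which add the first and last fatty acid, and 1 was higher (Lpin3, 0.52 ± 0.11), though not without Dex replicate 2 (0.49).

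The genes that control lipolysis changed in opposite directions. Pnpla2, which encodes ATGL, the lipase of the first step, lay at 12.83 and 12.78 in CI and at 13.79, 13.82 and 13.61 in Dex (0.94 ± 0.08, limma adjusted p = 1.05e-05), and TNF lay at 12.82 to 12.90. G0s2, the protein inhibitor of ATGL, lay at 12.69 and 12.92 in CI and at 11.17, 11.27 and 11.58 in Dex (-1.47 ± 0.12). The antilipolytic receptor genes Hcar1 (-1.74 ± 0.15), for lactate, and Hcar2 (-1.50 ± 0.10), for hydroxybutyrate, were lower. So was Mgll, which encodes the lipase of the last step, at 10.86 and 10.97 in CI and at 8.45, 8.64 and 8.66 in Dex (-2.33 ± 0.10). Lipe, the hormone-sensitive lipase gene, differed by -0.10 and did not pass. Over all genes, 3.33% were higher and 5.67% lower. Of the 21 measured genes of lipolysis, 2 were higher (1 without CI replicate 1) and 7 lower.

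Adipocyte identity genes were divided. Of 23 measured, 10 were lower, 2 higher and 11 did not pass, against 5.67% of all genes lower and 3.33% higher. The median difference was -0.12. Car3, a carbonic anhydrase abundant in fat, lay at 13.05 and 12.79 in CI and at 9.48, 8.74 and 9.20 in Dex, 13.8-fold lower (-3.78 ± 0.18, limma adjusted p = 1.34e-07), with TNF at 11.31 to 11.61. The 4 probe sets of Car3 ranged from -3.78 to -0.32, and 3 of them were called lower. Pck1, which feeds glycerol synthesis, lay at 10.48 and 10.62 in CI and at 7.94, 8.37 and 8.57 in Dex (-2.26 ± 0.16). Both were lower in Dex than in TNF as well (-2.29 and -0.97, called). Pparg, the master regulator of adipocytes, lay at 13.00 and 12.94 in CI and at 12.45, 12.33 and 12.31 in Dex (-0.61 ± 0.08). Its partner Cebpa differed by -0.23 and the adipokine gene Adipoq by 0.01, and neither passed. Leptin, Lep, lay at 7.17 and 6.26 in CI and at 5.76, 5.86 and 5.87 in Dex, and its difference (-0.89 ± 0.19) was not called without CI replicate 1 (-0.43).

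Among 30 measured genes of insulin signalling and glucose uptake, 4 were higher and 4 lower, against 3.33% and 5.67% of all genes. Irs1, the main insulin receptor substrate of adipocytes, lay at 11.84 and 11.83 in CI and at 10.56, 10.50 and 10.56 in Dex (-1.30 ± 0.10, limma adjusted p = 4.77e-06). Irs2, which insulin signalling represses, lay at 8.84 and 8.93 in CI and at 9.47, 9.48 and 9.56 in Dex (0.62 ± 0.07). The substrates therefore differed in opposite directions, and both differences were called against TNF too (-0.87 and 0.97). Grb14, an adaptor that inhibits the insulin receptor, lay at 10.24 and 10.18 in CI and at 8.42, 8.17 and 8.01 in Dex (-2.01 ± 0.21). Slc2a4, the insulin-responsive glucose transporter GLUT4, lay at 11.44 and 11.49 in CI and at 10.81, 10.88 and 10.78 in Dex (-0.65 ± 0.08), with TNF at 10.73 to 10.90. The receptor gene Insr differed by 0.60 ± 0.09 at the probe set used, but by -0.09 as the median of its 3 probe sets. Other probe sets of a gene also differed less in some cases: the 3 of Fkbp5 ranged from -0.18 to 3.06, the 4 of Tsc22d3 from 0.14 to 2.30, the 3 of Pck1 from -2.26 to 0.24, the 4 of Mgll from -2.33 to -0.11, the pairs of Grb14, Cebpd and Idh2 from -2.01 to -0.14, 0.35 to 2.40 and 0.07 to 1.04, and those of Fdps, Dcn, Acss2 and Acly reached 0.13, 0.04, 0.10 and 0.06. In the same way Igf1r (0.82 ± 0.08) and Akt1 (0.60 ± 0.11) were not called with the median of their probe sets (0.10 and 0.40).

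**Figure D4:**
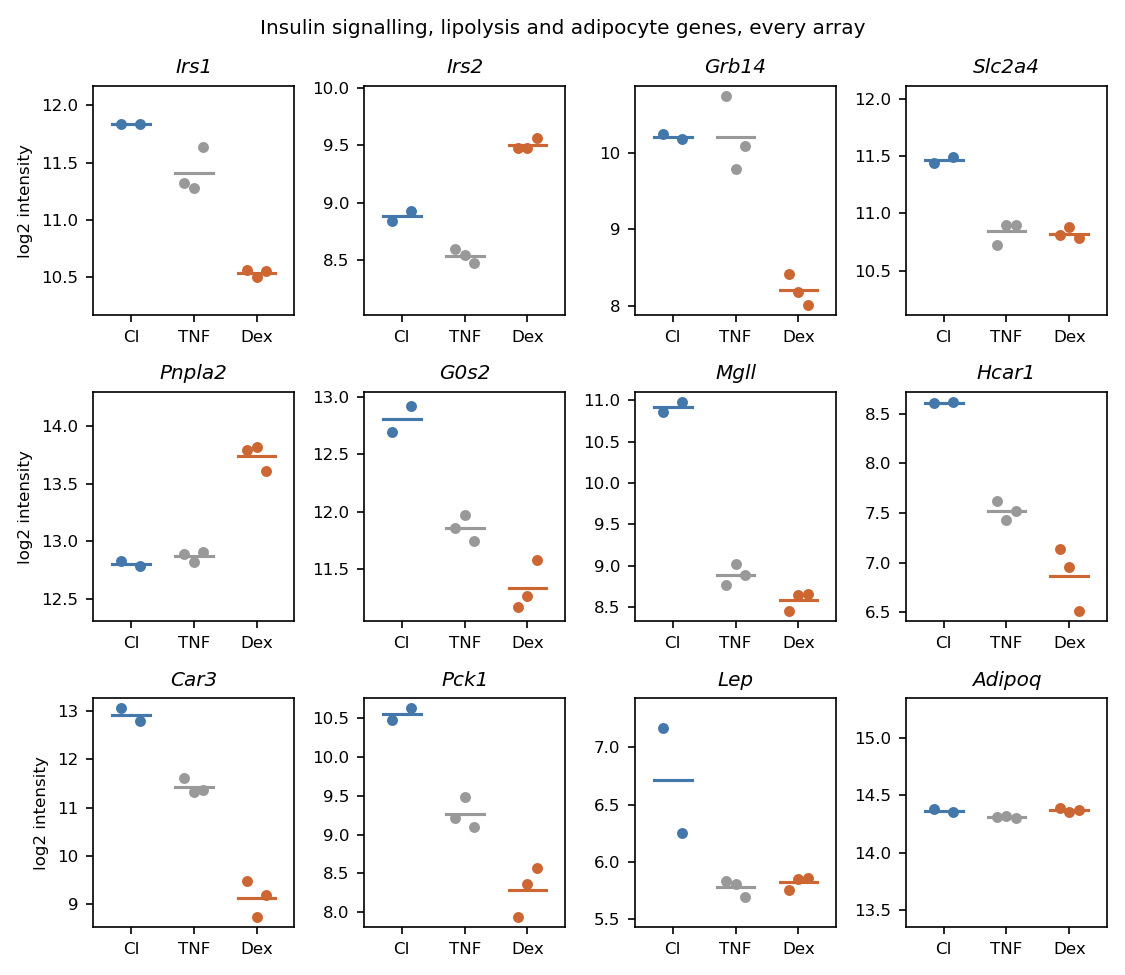
Log2 intensity (vertical axes, each spanning at least 2 units) of 12 genes of insulin signalling, lipolysis and adipocyte identity in each of the 8 arrays, with a bar at each group mean. Irs2 and Pnpla2 lie higher in Dex than in CI (by 0.62 and 0.94), Adipoq differs by 0.01, and the other 9 genes lie lower in Dex.

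Against 3.33% of all genes higher and 5.67% lower, genes that insulin represses through FOXO factors were mixed. Of 25 measured, 5 were higher and 4 lower, and 3 were higher without CI replicate 1. Pdk4, a kinase that closes pyruvate dehydrogenase, lay at 8.44 and 8.62 in CI and at 11.64, 11.65 and 11.09 in Dex, 7.62-fold higher (2.93 ± 0.15, limma adjusted p = 1.8e-07). Its TNF arrays, at 8.53 to 8.62, did not separate from CI. Foxo3, a FOXO factor gene picked after the values were seen, differed by 0.79 ± 0.10, and Pik3ip1, an inhibitor of PI3-kinase, lay at 7.30 and 7.79 in CI and at 9.11, 8.98 and 8.96 in Dex (1.47 ± 0.13). Pck1, Klf15, Gadd45a (-1.57 ± 0.20) and Sesn3 (-0.99 ± 0.10) were lower. Of 26 measured genes of ERK feedback and immediate early response, which growth factors induce, 8 were lower, 2 higher (1 without CI replicate 1) and 16 did not pass, with a median of -0.03. Dusp6, a phosphatase of ERK, lay at 8.66 and 8.63 in CI and at 6.17, 6.22 and 6.34 in Dex (-2.40 ± 0.17), and Dusp4 differed by -1.56 ± 0.13 and Spry4 by -1.07 ± 0.18. Spry2 (-0.88 ± 0.22) was not called without CI replicate 2 (-0.68). Jun, whose product is a subunit of AP-1, lay at 9.88 and 10.47 in CI and at 10.47, 10.70 and 10.40 in Dex, overlapping, and did not pass (0.35).

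Lists of energy metabolism differed in how many members were called, against 3.33% of all genes higher and 5.67% lower. None of the 32 measured oxidative phosphorylation genes was called. Of 23 fatty acid oxidation genes, the medium-chain dehydrogenase Acadm was higher (0.71 ± 0.07) and the peroxisomal enzyme Ehhadh lower (-0.98 ± 0.14). In the citric acid cycle, Idh2 (1.04 ± 0.10) and the kinase gene Pdk2 (0.83 ± 0.13) were higher beside Pdk4, and 0 of 24 were lower. Among 20 genes of branched-chain amino acid breakdown, Aldh6a1 (0.70 ± 0.07), Bcat2 (0.67 ± 0.10) and Bckdha (0.62 ± 0.09) were higher and Bckdhb (-0.90 ± 0.10) lower, so that the paired subunits of 1 enzyme differed in opposite directions. Bcat2 was not called without CI replicate 1 (0.49). Of 18 glycolysis genes 4 were lower, among them Ldhb (-0.99 ± 0.09) and Pfkfb3 (-0.89 ± 0.14), and without Dex replicate 3 it was 8. All 26 measured proteasome genes had a negative difference (median -0.37), but 4 were called, 2 without CI replicate 2 and 11 without Dex replicate 3. The counts for the proteasome and for glycolysis thus moved with a single array.

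Inflammatory mediators outside the interferon response differed by gene. Il6, a cytokine gene that glucocorticoids repress, lay at 7.47 and 7.63 in CI and at 5.47, 5.42 and 5.58 in Dex (-2.06 ± 0.25, limma adjusted p = 0.000136). These levels were below the median gene, as were those of Cxcl5 in Dex. Cxcl5, a neutrophil chemokine, lay at 8.62 and 8.71 in CI and at 5.72, 5.66 and 5.55 in Dex (-3.02 ± 0.19), and its TNF arrays lay above both at 11.14 to 11.97. The monocyte chemokine Ccl2 lay at 10.48 and 10.52 in CI and at 9.31, 9.23 and 9.59 in Dex (-1.12 ± 0.23). In the opposite direction Ccl6 lay at 9.24 and 9.18 in CI and at 13.22, 13.12 and 13.13 in Dex (3.95 ± 0.08), and Ccl9 differed by 1.96 ± 0.11, both of them myeloid CC chemokines. Dex exceeded TNF for Ccl6 (3.00) and lay below it for Ccl9 (-1.44). Over all genes, 3.33% were higher in Dex than in CI and 5.67% lower. Of 29 measured NF-kB and inflammatory genes, 1 was higher (0 without CI replicate 1) and 3 lower, and the median difference was 0.04. Saa3 and Lcn2, acute phase genes, did not pass (-0.00 and 0.33).

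Among acute phase and complement genes, 5 of 24 were higher and 5 lower, against 3.33% and 5.67% of all genes. Haptoglobin, Hp, lay at 12.63 and 12.67 in CI and at 14.30, 14.26 and 14.37 in Dex (1.66 ± 0.07) and as high in TNF (14.23 to 14.36). The acid glycoproteins split, with Orm3 higher (1.26 ± 0.12) and Orm2 lower (-0.94 ± 0.14). Hemopexin, Hpx (-1.56 ± 0.12), and complement factor B, Cfb (-1.38 ± 0.07), were lower.

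Of 27 measured genes of collagens and collagen processing, 12 were lower, 0 higher and 15 did not pass, with a median of -0.22. Over all genes, 5.67% were lower and 3.33% higher. Col3a1 lay at 13.84 and 13.69 in CI and at 12.67, 12.42 and 12.35 in Dex (-1.29 ± 0.10, limma adjusted p = 3.69e-06), and Col1a1 at 12.62 and 12.59 against 11.58, 11.57 and 11.25 (-1.14 ± 0.11). Col5a2 (-1.19 ± 0.08) and the basement-membrane associated Col15a1 (-1.88 ± 0.11) were lower as well, while the basement membrane collagens Col4a1 and Col4a2 differed by 0.07 and 0.05 and did not pass. Of 32 matrix glycoproteins and proteoglycans, 10 were lower, 2 higher and 20 did not pass. Lumican, Lum, which spaces collagen fibrils, lay at 10.55 and 10.21 in CI and at 7.68, 7.42 and 7.49 in Dex, 7.18-fold lower (-2.84 ± 0.12). The hyaluronan synthase gene Has2 (-2.02 ± 0.16) and decorin, Dcn (-1.42 ± 0.12), were lower, and Ccn1, a matricellular signalling protein, was higher (1.98 ± 0.23). The large proteoglycan gene Vcan, picked after the values were seen, was the other higher member (1.08 ± 0.10), but was not called with the median of its 8 probe sets. Among proteases and their inhibitors, 4 of 23 were higher, among them the gelatinase gene Mmp2 (0.78 ± 0.08) and Timp2 (0.89 ± 0.09), both picked after the values were seen, and 7 were lower, among them the stromelysin gene Mmp3 (-1.17). Col1a1, Col3a1, Col5a2, Lum and Dcn were also lower in Dex than in TNF (-0.99 to -2.07).

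Growth factor and cell cycle regulators also differed. The growth factor gene Igf1 lay at 11.46 and 11.34 in CI and at 10.18, 10.09 and 10.09 in Dex (-1.28 ± 0.07, limma adjusted p = 4.63e-07), while Igfbp3, which binds it, lay at 7.55 and 7.74 in CI and at 9.66, 9.50 and 9.30 in Dex (1.84 ± 0.11). In the group of D-type cyclins, CDK inhibitors and Gadd45 genes, 6 of 18 were higher and 1 lower. Over all genes, 3.33% were higher and 5.67% lower. Cdkn1a, the p21 inhibitor, was higher by 0.74 ± 0.08 and Gadd45g by 0.92 ± 0.10, whereas Gadd45a was lower, as given above. Smad6 and Smad7, inhibitors of TGF-beta and BMP signalling, were higher (1.66 ± 0.10 and 0.96 ± 0.15), and Tgfb2 (-1.16 ± 0.09) and Sfrp2 (-1.48 ± 0.09) lower. Of 29 genes of TGF-beta, BMP and Wnt signalling, 7 were higher (3 without CI replicate 1) and 5 lower.

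Antioxidant and oxidative stress genes are of interest because all cells had received an antioxidant. The 30 measured NRF2 targets and 26 antioxidant enzymes each held 5 called genes, against 9.00% of all genes, with medians of -0.05 and -0.06. Of the NRF2 targets, 3 were higher (Gsta3, Gclc at 0.80 ± 0.16 and Abcc4 at 0.86 ± 0.26) and 2 lower, and Abcc4 was not called without any 1 of the 5 arrays of CI and Dex. Nqo1, a quinone reductase gene, lay at 8.56 and 8.72 in CI and at 8.51, 8.39 and 8.88 in Dex (-0.05), and haem oxygenase, Hmox1, at 11.55 and 11.65 against 11.81, 12.28 and 12.87 (0.72). Nqo1 overlapped between the models, and Hmox1 did not overlap but did not pass (limma adjusted p = 0.0902). Hmox1 was called without Dex replicate 1 (0.97, adjusted p = 0.0219), without TNF replicate 1 (0.72, adjusted p = 0.0343) and with the actin covariate (0.77, adjusted p = 0.0471). Of the antioxidant enzymes, Gpx1 (0.94 ± 0.07) and Glrx (0.54 ± 0.10) were higher and Gpx8 (-1.01 ± 0.11), Sod3 (-0.91 ± 0.09) and Msrb2 (-0.54 ± 0.09) lower. The superoxide dismutase Sod2 and catalase, Cat, differed by -0.22 and 0.19 and were not called. Glrx was not called without CI replicate 1 (0.48).

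Several lists for other processes held called genes in both directions, against 3.33% of all genes higher and 5.67% lower. Of 18 clock genes, 2 were higher and 3 lower, among them the repressor gene Cry1 (0.99) and the output factor gene Dbp (-1.38). Among 23 genes of apolipoproteins and lipoprotein handling, 2 were higher, with Apoc3 the largest, and 4 were lower, among them Apoe, the lipid carrier apolipoprotein E (-1.31). Of 22 iron and metal genes, 5 were higher and 3 lower, and beside the metallothioneins the zinc transporter gene Slc39a14 was higher (1.82). The adhesion genes Alcam (-2.01) and Cdh13 (1.36) differed in opposite directions, in a list with 3 of 27 higher and 4 lower. The probe sets of Alcam ranged from -2.01 to -0.38 and those of Cdh13 from 0.15 to 1.36. Of 27 actin cytoskeleton genes, 1 was lower and 0 higher, as was the case for 1 of 25 genes of the unfolded protein response. Of 14 measured endothelial markers, 0 were called, and of 15 muscle markers, 1 was called (Acta1, lower).

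**Figure D5:**
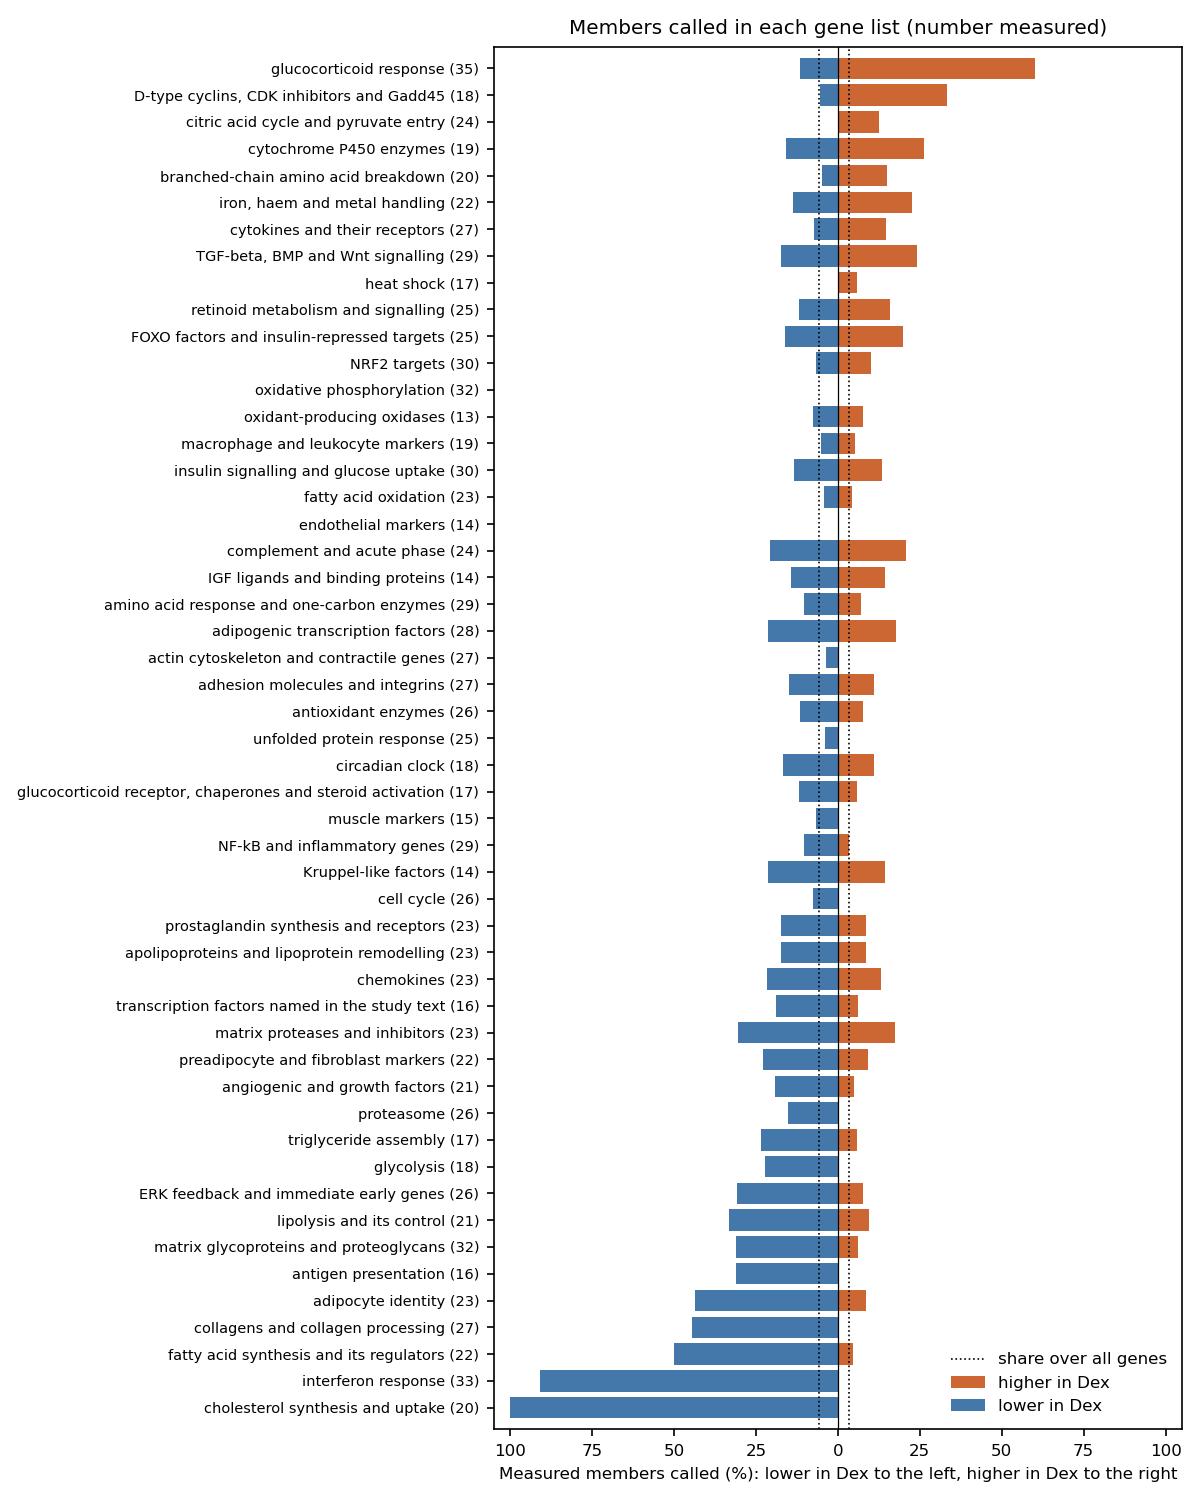
Percentage of measured members called lower in Dex (bars to the left) and higher in Dex (bars to the right) for each of 51 gene lists, with the number measured after each name and dotted lines at the shares over all genes (5.67% and 3.33%). The cholesterol list (20 of 20 lower) and the interferon list (30 of 33 lower) stand at one end and the glucocorticoid list (21 of 35 higher) at the other. The lists were chosen with earlier results of these data known.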

How the data were processed

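Total RNA of 8 samples was labelled with biotin and hybridised to Affymetrix whole-genome mouse arrays. The deposited values hold 1 intensity per probe set, not on a log scale, which the authors made with RMA in affyPLM as far as the study's methods say, with no step beyond that given in the sources used here. The design had assumed log2 values, so log2 was taken with no pseudocount. The deposited values give no background measure, and precision is limited by how few arrays there are. Symbols came from GEO's platform annotation, which left 34945 probe sets with 1 symbol after 64 control probe sets were left out.

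The CI, TNF and Dex groups were fitted together with limma 3.58.1 in R 4.3.3 (lmFit, eBayes, two-sided, Benjamini-Hochberg adjustment over all genes). Calls required an adjusted p below 0.05 together with a log2 difference larger than 0.5 in either direction. The genes named were, per direction, the 15 called genes that differed most, up to 6 called members of each of 51 lists, and a fixed set. The uncalled members Srebf1, Mlxipl, Lipe, Irf1, Oasl1, Ifi27, Col4a1 and Col4a2, and Sgk1, Thrsp and the genes so marked in the text, were picked outside this rule after their values were seen. The members and lists were chosen with earlier results of these data known. Of 1157 listed genes, 1077 had a named probe set. On simulated data with 18193 genes, the Dex minus CI fit found 98% of the 100 genes given a shift of 0.75 and 100% of the 100 given 1.5, and made 2 false calls. The simulation drew independent normal noise at the fitted spread of each gene and shifted only these genes, whereas 1637 were called in the data. Its counts are therefore no error rate for the calls above. Alternatives were other scalings, probe set rules, fits and thresholds, and leaving out each array. Figures were drawn with Python 3.11.15 and matplotlib 3.10.9.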

Additional observations from a re-analysis of the deposited data

How the results depend on the processing

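The 1637 genes called (605 higher and 1032 lower in Dex) became 1617 (661 and 956) after quantile normalization, 1682 (570 and 1112) with arrays centred on their medians, 1417 (529 and 888) with an offset of 32 before the log, and 2978 probe sets (1175 and 1803) when every probe set was a feature. A difference over 1 left 423 genes (135 and 288). With 1 array left out the count lay between 1552 and 1795 (523 to 670 higher and 923 to 1155 lower). Every alternative named here kept more lower than higher genes, and no gene changed its called direction at the probe set that stood for it. With every probe set as a feature this was fixed in advance, because that probe set has the same difference there. Of the 914 called genes with over 1 probe set, 6 had another probe set called in the opposite direction. The deviations of CI and Dex arrays with the same number correlated at 0.02 and -0.02. These cannot decide whether replicate numbers pair the samples, because the deviations of 2 CI arrays mirror each other. TNF and Dex arrays correlated at 0.33, -0.09 and 0.21 with the same number and at -0.38 to 0.28 with different numbers. A replicate block gave 1730 calls (604 and 1126), 1578 of them among the 1637. Of the 255 named genes called, 130 were called under every one of the 21 alternatives that included them. The alternative restricted to genes above the median gene did not include all of them. The alternative with a difference over 1 drops every smaller call by its own rule, so the number 130 is no measure of stability alone. Insr reversed to -0.093 with the median of its probe sets. Genes near 0 that were not called also changed sign. Adipoq was at -0.012 with centred arrays and from -0.0032 without CI replicate 2 to 0.024 without CI replicate 1. Nqo1 ran from -0.20 without Dex replicate 3 to 0.051 without Dex replicate 2, and Saa3 from -0.12 without Dex replicate 3 to 0.058 without CI replicate 2. Saa3 was at 0.030 after quantile normalization and 0.0088 with the actin covariate. The causes were not tested.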
